A study of Nannochloropsis oceanica with 15 samples.

Results

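Late phosphate deprivation was set against early deprivation in Nannochloropsis oceanica IMET1, a single-celled oleaginous alga of the sea. The comparison takes the libraries labelled 48 h and those labelled 6 h, 3 of each (replicates a, b and c), which is 6 of the 15 RNA-seq libraries of the time course, and it covers all genes of the table. Both groups are strain IMET1, treated by phosphate deprivation, for 48 h in the later libraries and for 6 h in the earlier ones. Cells in linear growth under continuous light had been spun down, washed in axenic seawater and placed in f/2 medium lacking phosphate, so both groups share the transfer and differ in the time after it. Cultures moved to complete f/2 medium are also described, but no library carries that label. Hours after the transfer, ageing of the culture and phosphate deprivation therefore cannot be told apart. The labels mention triplicate cultures without tying a letter to a culture, so p-values here measure the spread between libraries, which may be partly technical.

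Algae and plants answer a lack of phosphate by taking up more of it and by spending less. They raise uptake, with membrane phosphate transporters, SPX-domain proteins that sense inositol pyrophosphates, and secreted phosphatases that free phosphate from organic esters. They spend less by replacing phospholipids with sulfolipid, galactolipid and, in algae of this group, betaine lipid, and by cutting back ribosomes, whose RNA is a large store of cell phosphorus. Nannochloropsis is studied for the oil it keeps in droplets coated by the lipid droplet surface protein. Gene names below are the table's homology annotations, mostly to plant proteins, and the stated roles are those known for the plant, algal or yeast namesakes.

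Of the 10434 genes in the table, 9321 passed the filter on low counts. Library totals were 17674092, 20576407 and 19368532 at 48 h and 16661053, 16695564 and 26349336 at 6 h for replicates a, b and c, so replicate c of 6 h was the deepest library. Levels are given as CPM, counts scaled to library size with edgeR's TMM factors, or as the authors' FPKM. FPKM divides by depth and by gene length and is used wherever genes are compared with each other. Across genes, log2 CPM correlated at 0.915 to 0.92 among the 48 h libraries, 0.908 to 0.925 among those of 6 h and 0.856 to 0.881 between the groups. The genes that mark the organism were expressed in both groups: the lipid droplet surface protein gene NO11G02550 averaged 443 FPKM at 48 h and 855 FPKM at 6 h, the light-harvesting gene NO25G00860 7261 FPKM at 48 h and 5815 FPKM at 6 h, and NO05G01490, annotated in KEGG terms as the betaine lipid synthase, 61 FPKM at 48 h and 81.7 FPKM at 6 h.

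At 48 h, 2283 genes were higher than at 6 h and 1914 were lower, by edgeR's quasi-likelihood F-test at a Benjamini-Hochberg adjusted p under 0.05. These are 24.5% and 20.5% of the tested genes, 45.0% together, and these shares are the background for every gene group that follows. The median log2 fold change over all tested genes was 0.03, with quartiles at -0.33 and 0.44. Most changes were small: 761 of the higher genes and 439 of the lower ones changed at least 2-fold, and 183 and 67 at least 4-fold. Below, "rose" and "fell" mean a 48 h level above or below that of 6 h past that test. The 3 libraries of 48 h all lay to the same side of the 3 of 6 h in 2151 of the higher and 1832 of the lower genes, and in 53.8% of all tested genes. Most list members named below were chosen among genes separate in this way. Their lack of overlap follows from that choice and is no further evidence.

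**Figure D1:**
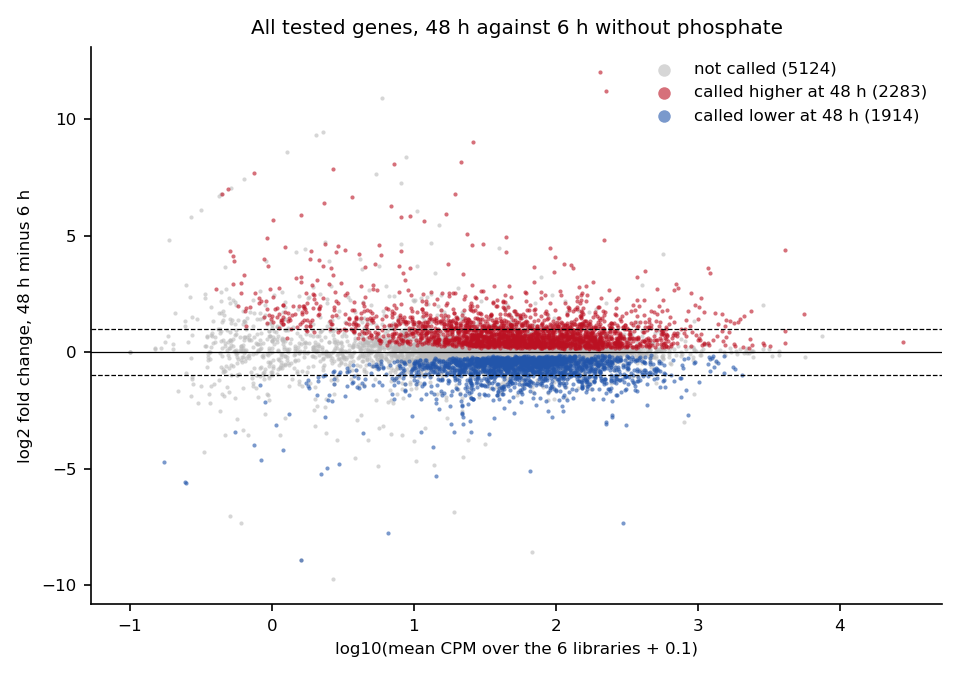
Each point is a tested gene, with log10 of its mean CPM over the 6 libraries plus 0.1 on the horizontal axis and its log2 fold change (48 h minus 6 h) on the vertical axis. Red points are the 2283 genes called higher at 48 h and blue points the 1914 called lower, and the dashed lines mark a 2-fold change, which 761 and 439 of them passed.

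Phosphate uptake genes were among the clearest rises. Of the list of phosphate transporters and SPX proteins, 9 of 14 tested genes rose and 1 fell, and the median log2 fold change was 1.03, against 0.03 over all tested genes. Their summed expression was 1512, 1564 and 1571 FPKM at 48 h, against 612, 596 and 542 FPKM at 6 h, and the groups did not overlap. Within the list the gain was uneven by type; this and the other subsets of lists below were formed after the values were seen. Among the 6 PHT-type and Pho88-type transporters 4 of 6 rose and 0 fell, among the 4 SPX proteins 4 of 4 rose and 0 fell, and among the 4 PHO1-type transporters 1 of 4 rose and 1 fell.

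The most expressed of the uptake transporters was NO16G01940, annotated as inorganic phosphate transporter 1-12, of the family that carries phosphate across the plasma membrane in plants. It had 1679, 1596 and 1787 CPM at 48 h, against 542, 504 and 482 CPM at 6 h (log2 fold change 1.73 ± 0.08, edgeR adjusted p = 3.32e-08). Every library of 48 h stood above every library of 6 h. A second family member, inorganic phosphate transporter 1-4 (NO03G01310), had 406, 399 and 423 CPM at 48 h, against 54.3, 58 and 82.7 CPM at 6 h (log2 fold change 2.65 ± 0.19, edgeR adjusted p = 6.97e-07), again with no overlap and with very little spread at 48 h. NO24G00190, annotated as inorganic phosphate transporter 2-1, which in plants sits in the plastid envelope, had 729, 637 and 706 CPM at 48 h, against 177, 149.9 and 116 CPM at 6 h (log2 fold change 2.23 ± 0.13, edgeR adjusted p = 1.76e-07). All 3 genes had their lowest mean at 6 h: transporter 1-12 averaged 1503 CPM at 0 h, 509 at 6 h, 731 at 12 h, 1475 at 24 h and 1687 at 48 h, and transporter 1-4 80.2 CPM at 0 h, 65 at 6 h, 80.5 at 12 h, 129 at 24 h and 409 at 48 h.

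Both genes annotated as SPX domain-containing protein 1, in plants a phosphate-dependent inhibitor of the starvation regulator PHR1, rose. NO10G01110 had 876, 783 and 779 CPM in the 48 h libraries and 486, 379.7 and 298 CPM in the 6 h libraries (log2 fold change 1.07 ± 0.17, edgeR adjusted p = 0.000366). NO06G00660 had 167, 152 and 161 CPM in the 48 h libraries and 81.8, 82.2 and 76.7 CPM in the 6 h libraries (log2 fold change 1.00 ± 0.06, edgeR adjusted p = 3.78e-07). Neither gene's groups overlapped. The SPX-domain membrane protein NO04G02820, whose plant namesakes move phosphate across the vacuolar membrane, had 67.5, 28 and 25.2 CPM at 48 h, against 4.48, 2.63 and 4.74 CPM at 6 h (log2 fold change 3.34 ± 0.74, edgeR adjusted p = 0.00316). Its 48 h replicate a stood well above replicates b and c, and without it the log2 fold change was 2.74 with edgeR adjusted p = 0.0128. Its relative NO04G02810 was less steady: it averaged 76.1 CPM at 48 h and 44.9 CPM at 6 h (edgeR adjusted p = 0.0169), but the call was lost without 48 h replicate a (adjusted p = 0.0821), without 48 h replicate c (0.0538), without 6 h replicate b (0.0691) and in a fit of the 6 libraries alone (0.11).

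The exporter type moved differently. Phosphate transporter PHO1-2 (NO26G01790), of the family that in plants loads phosphate into the xylem, was the list's fall, with 57.3, 65 and 60.5 CPM at 48 h, against 104, 110.4 and 117 CPM at 6 h (log2 fold change -0.86 ± 0.06, edgeR adjusted p = 9.94e-07). Every 48 h library lay below every 6 h library. PHO1 homolog 4 (NO11G00580) rose at a very low level, with means of 3.21 CPM at 48 h and 0.864 CPM at 6 h (edgeR adjusted p = 0.0122), a call lost without 48 h replicate c (adjusted p = 0.0582). The other low-level rise, the putative phosphate transporter NO16G02030, had 13, 136 and 56 counts at 48 h and 0, 8 and 2 counts at 6 h, and its call was lost without 48 h replicate b (adjusted p = 0.0618) or 6 h replicate c (0.0656). NO15G02510 (transporter 1-6), NO17G01230 (PHO1), NO09G01750 (Pho88) and NO05G03150 (PHO1 homolog 7) did not pass the test, with log2 fold changes of 0.73, -0.07, -0.15 and -0.22.

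Enzymes that release phosphate from organic compounds followed the transporters. Of the phosphatases and phosphoesterases, 8 of 12 tested genes rose and 0 fell, at a median log2 fold change of 0.64. Their summed level averaged 397 FPKM at 0 h, 328 at 6 h and 502 at 48 h. NO16G02990, an alkaline phosphatase-like gene of the kind that algae secrete to use organic phosphate, had 53.9, 23.7 and 58.4 CPM at 48 h, against 5.27, 6.03 and 7.15 CPM at 6 h (log2 fold change 2.88 ± 0.28, edgeR adjusted p = 8.22e-06). Its lowest 48 h library was still well above its highest 6 h library. The purple acid phosphatases, metal-dependent enzymes that plants release from starved roots, rose less, and 4 of 5 passed the test. NO07G00080 and NO20G01470 among the 5 are annotated as probable inactive. Purple acid phosphatase 7 (NO12G01720) had 154, 151 and 145 CPM at 48 h, against 80.7, 76 and 95.5 CPM at 6 h (log2 fold change 0.84 ± 0.10, edgeR adjusted p = 2.73e-05). It had 2621, 3130 and 2746 counts at 48 h. At 0 h it had 2941, 3820 and 4094 counts, from library totals of 18013512, 21231074 and 24955189. Its 48 h level was thus not above that of 0 h.

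Glycerophosphodiesterases split the head groups left by phospholipid breakdown into glycerol 3-phosphate. GDPD6 (NO04G01100) had 625, 213 and 589 CPM at 48 h, against 218, 150.1 and 71.9 CPM at 6 h (log2 fold change 1.70 ± 0.42, edgeR adjusted p = 0.00596). Here the groups overlapped, since 48 h replicate b lay just under 6 h replicate a, and a fit of the 6 libraries alone lost the call (adjusted p = 0.0661). A second gene of the kind, NO22G01530, averaged 136 CPM at 48 h and 78.6 CPM at 6 h (edgeR adjusted p = 0.0191) and was lost without 48 h replicate a (adjusted p = 0.0786), 48 h replicate c (0.0589) or 6 h replicate a (0.0613). The remaining one, NO04G02830, did not pass, with a log2 fold change of -0.40, but without 48 h replicate b it passed as a fall, at -0.60.

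**Figure D2:**
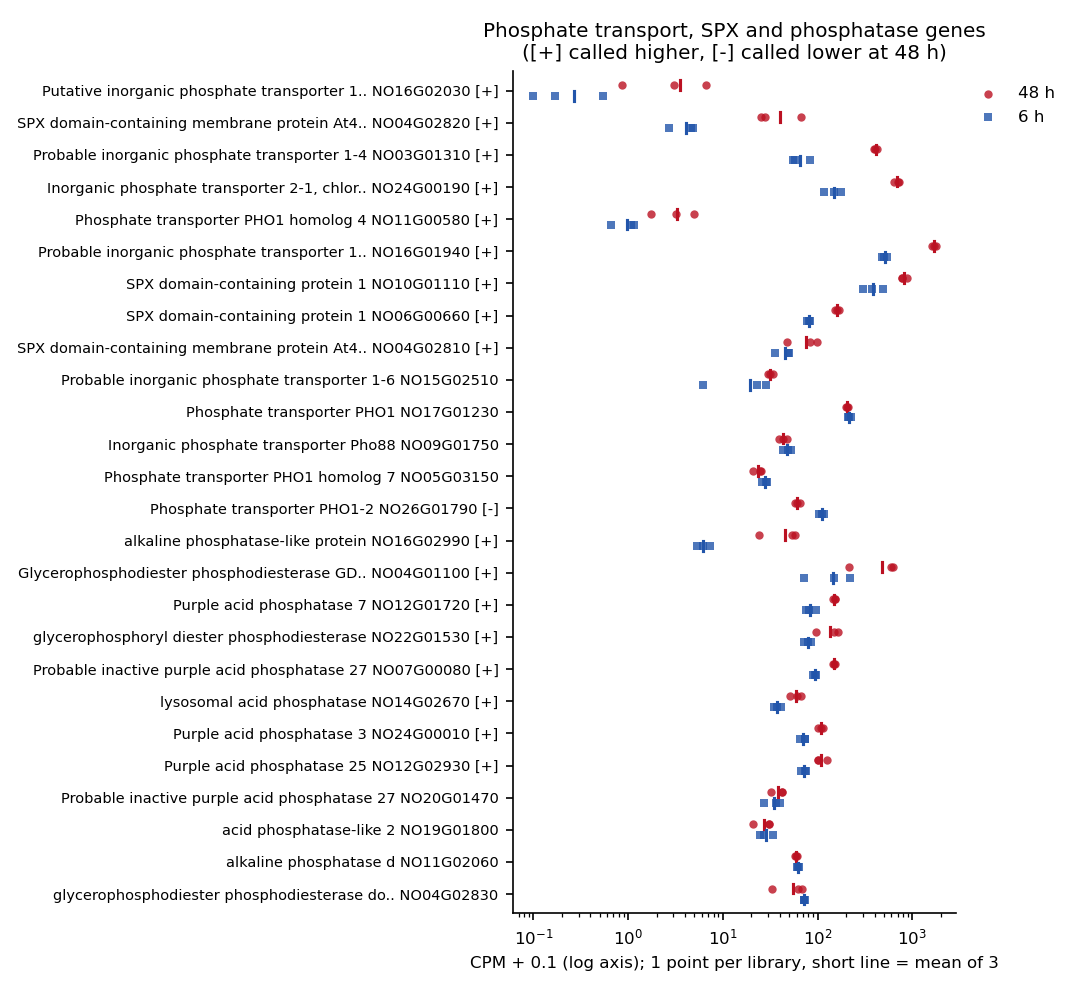
Rows are the 14 phosphate transport and SPX genes and the 12 phosphatase and phosphoesterase genes, each ordered by fold change, with CPM + 0.1 on a log axis, red circles for the 48 h libraries and blue squares for those of 6 h. Short lines are means of 3, and genes called higher ([+], 9 and 8) lie to the right at 48 h, with PHO1-2 alone called lower ([-]).

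Genes of pyrophosphate and inositol phosphate metabolism were few. The inositol hexakisphosphate and diphosphoinositol-pentakisphosphate kinase NO26G01490, which in plants and yeast makes the inositol pyrophosphates that SPX domains bind, had 217, 212 and 230.2 CPM in the 48 h libraries and 99.1, 106 and 153 CPM in the 6 h libraries (log2 fold change 0.88 ± 0.14, edgeR adjusted p = 0.000389). The soluble inorganic pyrophosphatase NO18G00370, which recovers phosphate from pyrophosphate, had 50.9, 47.3 and 51.9 CPM in the 48 h libraries and 88.6, 92 and 90.3 CPM in the 6 h libraries (log2 fold change -0.85 ± 0.06, edgeR adjusted p = 1.14e-06). The first rose and the second fell, both without overlap. Soluble inorganic pyrophosphatase 6 (NO12G02840), of the plastid, had 8.23, 41.5 and 38.7 CPM at 48 h, against 4.37, 5.7 and 6.73 CPM at 6 h (log2 fold change 2.39 ± 0.84, edgeR adjusted p = 0.0365), a rise lost when any library other than 48 h replicate a was left out. The polyphosphate and pyrophosphate list as a whole had 3 of 7 tested genes higher and 1 lower. The pyrophosphate-driven proton pump of the vacuole, NO13G01250, also fell, with 507, 428 and 488 CPM at 48 h, against 1187, 1084 and 791 CPM at 6 h (log2 fold change -1.11 ± 0.12, edgeR adjusted p = 2.04e-05).

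Membrane lipid genes changed in several directions at once. Among phospholipid-degrading enzymes 8 of 21 tested genes rose and 4 fell, at a median log2 fold change of 0.07. Phospholipase D zeta 2 (NO06G04260), which in Arabidopsis roots is starvation-induced and supplies diacylglycerol for galactolipid, had 68.3, 36.8 and 52.9 CPM at 48 h, against 21.3, 16.4 and 13.2 CPM at 6 h (log2 fold change 1.63 ± 0.21, edgeR adjusted p = 5.98e-05). The lysophospholipase-type gene NO16G00950 had 72.3, 61.1 and 72.3 CPM at 48 h, against 17.9, 15.8 and 13 CPM at 6 h (log2 fold change 2.14 ± 0.21, edgeR adjusted p = 6.74e-06), and neither gene's libraries overlapped between the times. Phospholipase D zeta 2 was not highest at 48 h, however, since it averaged 11.4 CPM at 0 h, 17 at 6 h, 154 at 12 h, 36.3 at 24 h and 52.7 at 48 h. Phospholipase A1-Igamma1 (NO18G01550) rose by a log2 fold change of 1.21 and lysophospholipase NO03G04420 by 1.46, while both SGR2-type phospholipases (NO06G00240 and NO15G02380) fell, by log2 fold changes of -0.64 and -0.50 (edgeR adjusted p = 2.98e-05 and 0.000545).

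Sulfolipid synthesis genes changed in both directions, with 1 large rise. SQD2 transfers sulfoquinovose to diacylglycerol to make the sulfolipid that can stand in for phosphatidylglycerol in plastid membranes. The SQD2 gene NO15G02830 had 140.2, 107 and 141 CPM at 48 h, against 15.5, 12 and 3.8 CPM at 6 h (log2 fold change 3.64 ± 0.40, edgeR adjusted p = 1.88e-05). Its lowest 48 h library was far above its highest 6 h library, and the gene averaged 5.83 CPM at 0 h, 10.4 at 6 h, 83.7 at 12 h, 44.1 at 24 h and 129.6 at 48 h. Another SQD2 gene, NO07G01720, rose by 0.61 on the log2 scale and the SQD2 gene NO01G02630 fell, with 68.2, 53.9 and 63.1 CPM in the 48 h libraries and 162, 174 and 109.6 CPM in the 6 h libraries (log2 fold change -1.27 ± 0.24, edgeR adjusted p = 0.000981). The list as a whole had 6 tested genes, of which 2 rose and 1 fell. The betaine lipid synthase gene NO05G01490, which no list matched, had 81.4, 85 and 86.3 CPM at 48 h, against 94.3, 105 and 112 CPM at 6 h (log2 fold change -0.30 ± 0.08, edgeR adjusted p = 0.00648), a small drop with no overlap.

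Phospholipid synthesis changed little, with 5 of 16 tested genes higher and 1 lower, and only 3 higher without 48 h replicate a, 48 h replicate c or 6 h replicate c. Its median log2 fold change was 0.08.

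Oil synthesis genes were not raised as a group. In the list of triacylglycerol synthesis and lipid droplet genes 7 of 34 tested genes rose and 7 fell, or 11 fell in a fit of the 6 libraries alone and 13 by DESeq2. The median log2 fold change was -0.14, and the list's summed level was lower at 48 h: 1394, 1577 and 1516 FPKM at 48 h, against 2133, 2202 and 2027 FPKM at 6 h. The lipid droplet surface protein, the main coat protein of the droplet, is in that sum. Its gene NO11G02550 had 867, 868 and 894 CPM at 48 h, against 1663, 1668 and 1302 CPM at 6 h (log2 fold change -0.82 ± 0.08, edgeR adjusted p = 9.86e-06), and over the course it averaged 209 CPM at 0 h, 1544 at 6 h, 1595 at 12 h, 766 at 24 h and 876 at 48 h. In CPM the whole list summed to 4656 at 0 h, 5669 at 6 h and 4563 at 48 h. On that scale the gene's rise from 0 h to 6 h exceeded that of the whole list. Its fall to 48 h was most of the list's fall, so this lipid droplet surface protein gene shapes the sum. The second gene with that annotation, NO05G01760, had 173, 178 and 171 CPM in the 48 h libraries and 237, 236 and 248 CPM in the 6 h libraries (log2 fold change -0.47 ± 0.04, edgeR adjusted p = 2.36e-06). Both sets of libraries were separate.

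Acyltransferases of the oil pathway went both ways. LPAT5 (NO01G00580), a 1-acyl-sn-glycerol-3-phosphate acyltransferase that makes phosphatidic acid, had 271, 158 and 260.3 CPM at 48 h, against 99.3, 94.9 and 116 CPM at 6 h (log2 fold change 1.15 ± 0.17, edgeR adjusted p = 0.000162). The diacylglycerol acyltransferase 2D gene NO10G04120, which performs the last step of oil synthesis, rose by 0.58 on the log2 scale (edgeR adjusted p = 3.64e-05). For both genes the counts at 48 h overlapped those at 0 h. NO01G00580 had 4618, 3287 and 4924 counts at 48 h and 4077, 4539 and 5557 at 0 h. NO10G04120 had 1793, 2505 and 2205 counts at 48 h and 2060, 2580 and 3044 at 0 h. A further type 2 gene, NO08G03480, fell by 0.69 (adjusted p = 0.00409), a call that a fit of the 6 libraries alone lost at 0.0537. Another gene annotated as 2D, NO01G00990, had 51.4, 30.5 and 40.5 CPM at 48 h, against 233, 89.8 and 79.7 CPM at 6 h (log2 fold change -1.72 ± 0.54, edgeR adjusted p = 0.0226). That fall was lost without 48 h replicate b or c or 6 h replicate a, and without the last its log2 fold change was -1.06. Of the 34 tested genes of the list, 20 did not pass the test.

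Lipases and fatty acid genes added some of the larger single changes. The putative lipase NO12G03110 had 353, 136 and 275 CPM at 48 h, against 39.5, 36 and 35.6 CPM at 6 h (log2 fold change 2.78 ± 0.30, edgeR adjusted p = 1.61e-05). The class 3 lipase NO17G02650 had 82, 41.6 and 67.8 CPM at 48 h, against 11.8, 14.4 and 14.6 CPM at 6 h (log2 fold change 2.23 ± 0.23, edgeR adjusted p = 1.25e-05). Both were well separated, whereas SDP1 (NO14G01540), the oil body lipase that starts oil breakdown in Arabidopsis seeds, fell slightly, with 161, 125 and 150.1 CPM in the 48 h libraries and 221, 193 and 203 CPM in the 6 h libraries (log2 fold change -0.50 ± 0.11, edgeR adjusted p = 0.00298). In all 7 lipases rose and 7 fell among 23 tested; the median log2 fold change was 0.14, and -0.01 without 48 h replicate c.

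Desaturases and elongases, which set the chain length and double bonds of fatty acids including eicosapentaenoic acid, leaned downward, with 5 of 29 tested genes higher and 11 lower. The steepest falls were 3 desaturases. NO11G02480, a delta-12 desaturase that turns oleate into linoleate, had 38.8, 59.9 and 44.5 CPM at 48 h, against 463, 532 and 223 CPM at 6 h (log2 fold change -3.09 ± 0.39, edgeR adjusted p = 5.87e-05). The second delta-12 gene, NO14G02790, had 44.7, 55.5 and 100.3 CPM at 48 h, against 646, 422 and 234 CPM at 6 h (log2 fold change -2.70 ± 0.41, edgeR adjusted p = 0.000229). NO28G00700, annotated as an acyl-lipid (9-3)-desaturase, had 47.7, 51.3 and 50.8 CPM at 48 h, against 525, 486 and 201 CPM at 6 h (log2 fold change -3.02 ± 0.54, edgeR adjusted p = 0.000724). In each of the 3 the lowest 6 h library was far above the highest 48 h library. At the other times NO11G02480 averaged 409 CPM at 0 h, 406 at 6 h, 786 at 12 h, 125 at 24 h and 47.7 at 48 h, with its highest mean at 12 h. The desaturase NO26G01770 rose instead, by 1.18 on the log2 scale (edgeR adjusted p = 3.57e-05).

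Fatty acid synthesis genes were split, with 8 of 24 tested genes higher and 7 lower, or 5 higher without 48 h replicate c. The list is not confined to the plastid. It also holds a polyketide synthase (NO06G02810) and a mitochondrial 3-oxoacyl-[acyl-carrier-protein] synthase (NO03G02790). The 3-oxoacyl-[acyl-carrier-protein] reductase gene NO15G03180, which reduces the growing chain, had 325, 339 and 335 CPM at 48 h, against 98.6, 91.6 and 108 CPM at 6 h (log2 fold change 1.74 ± 0.10, edgeR adjusted p = 2.08e-07). The acyl carrier protein gene NO30G00840, on which the chain grows, had 983, 1032 and 1042 CPM at 48 h, against 1563, 1635 and 1489.8 CPM at 6 h (log2 fold change -0.62 ± 0.09, edgeR adjusted p = 0.000163). The first rose and the second fell, each with separate libraries. Genes of beta-oxidation and peroxisomes stayed near the background, with 18 of 73 tested genes higher and 17 lower and a median of -0.01.

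The broadest change of the 47 lists concerned the cytosolic ribosome. Of the cytosolic ribosomal protein genes, 1 of 76 tested genes rose and 70 fell, 56 of them at least 2-fold, and the median log2 fold change was -1.16. Their summed level was 10986, 10219 and 10422 FPKM at 48 h, against 27421, 28322 and 24068 FPKM at 6 h. Both subunits took part, with 28 of 29 genes for proteins of the small 40S subunit lower and a median of -1.23, and 40 of 45 of the large 60S subunit lower and a median of -1.12. For scale, 20.5% of all tested genes were lower. At 0 h the sum was about as low as at 48 h: it averaged 11142 FPKM at 0 h, 26603 at 6 h, 25613 at 12 h, 24442 at 24 h and 10542 at 48 h.

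Among single genes, 40S ribosomal protein S20-1 (NO08G04350) had 124, 106 and 114 CPM at 48 h, against 426, 455 and 367 CPM at 6 h (log2 fold change -1.86 ± 0.11, edgeR adjusted p = 2.19e-07). 60S ribosomal protein L35-1 (NO16G01870) had 44.6, 34.9 and 42.1 CPM at 48 h, against 215, 208 and 86.1 CPM at 6 h (log2 fold change -2.07 ± 0.33, edgeR adjusted p = 0.000305). In both, each 6 h library exceeded each 48 h library. The exception that passed the test was L26-2 (NO13G00800), higher by 0.23 on the log2 scale (edgeR adjusted p = 0.00214), a call lost in a fit of the 6 libraries alone (0.0543). The L15 gene NO09G03120 was nearly silent at 48 h, with 6.64, 2.84 and 1.64 CPM in the 48 h libraries and 643, 634 and 483 CPM in the 6 h libraries. At the other times it switched between replicates, the 0 h libraries holding 69, 6480 and 478 counts, those of 12 h 68, 10658 and 9802 counts, and those of 24 h 12999, 90 and 50 counts. Its adjusted p was 0.0352 by edgeR, and the call was lost when any library other than 6 h replicate c was left out, with adjusted p between 0.0561 and 0.107; a second L15 gene was too low to be tested, and how reads of such copies were divided is not given in the sources used here.

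Translation factors moved with the ribosome only in part. Of 52 tested initiation and elongation factor genes 9 rose and 16 fell, with 5 higher without 48 h replicate c and 3 higher in a fit of the 6 libraries alone. Elongation factor 1-alpha (NO22G01450), which brings aminoacyl-tRNA to the ribosome, had 395, 393 and 427 CPM at 48 h, against 1221, 1263 and 1254 CPM at 6 h (log2 fold change -1.62 ± 0.09, edgeR adjusted p = 1.84e-07). Initiation factor 5A-2 (NO04G01790), which relieves stalled ribosomes, had 125, 109.8 and 114 CPM at 48 h, against 385, 396 and 319 CPM at 6 h (log2 fold change -1.65 ± 0.09, edgeR adjusted p = 1.08e-07). Both fell without overlap. Transfer RNA synthetases leaned the other way, with 15 of 44 higher and 9 lower; tryptophan--tRNA ligase of the organelles (NO01G05130) had 61.2, 69.3 and 64.1 CPM in the 48 h libraries and 30.7, 31.2 and 33.3 CPM in the 6 h libraries (log2 fold change 1.03 ± 0.07, edgeR adjusted p = 3.88e-07).

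Assembly factors of the ribosome did not follow its proteins. Among ribosome biogenesis genes 21 of 67 tested genes rose and 3 fell, at a median log2 fold change of 0.22. Nucleolar protein 10 (NO19G01650), part of the H/ACA particles that modify ribosomal RNA, had 42.2, 49.7 and 45.5 CPM at 48 h, against 24.4, 23.7 and 25.1 CPM at 6 h (log2 fold change 0.91 ± 0.09, edgeR adjusted p = 6.94e-06). The Urb2 domain gene NO01G04890, in yeast a factor of early 60S assembly, rose by 0.79 on the log2 scale. Both had a lower mean at 6 h than at 0 h, and NO19G01650 averaged 54.2 CPM at 0 h, 24.4 at 6 h, 28.9 at 12 h, 43.4 at 24 h and 45.8 at 48 h. Ribosomal proteins of plastids and mitochondria were near the background, with 4 of 29 tested genes higher and 7 lower, and 4 lower without 48 h replicate b or 6 h replicate b. Their median was -0.12.

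**Figure D3:**
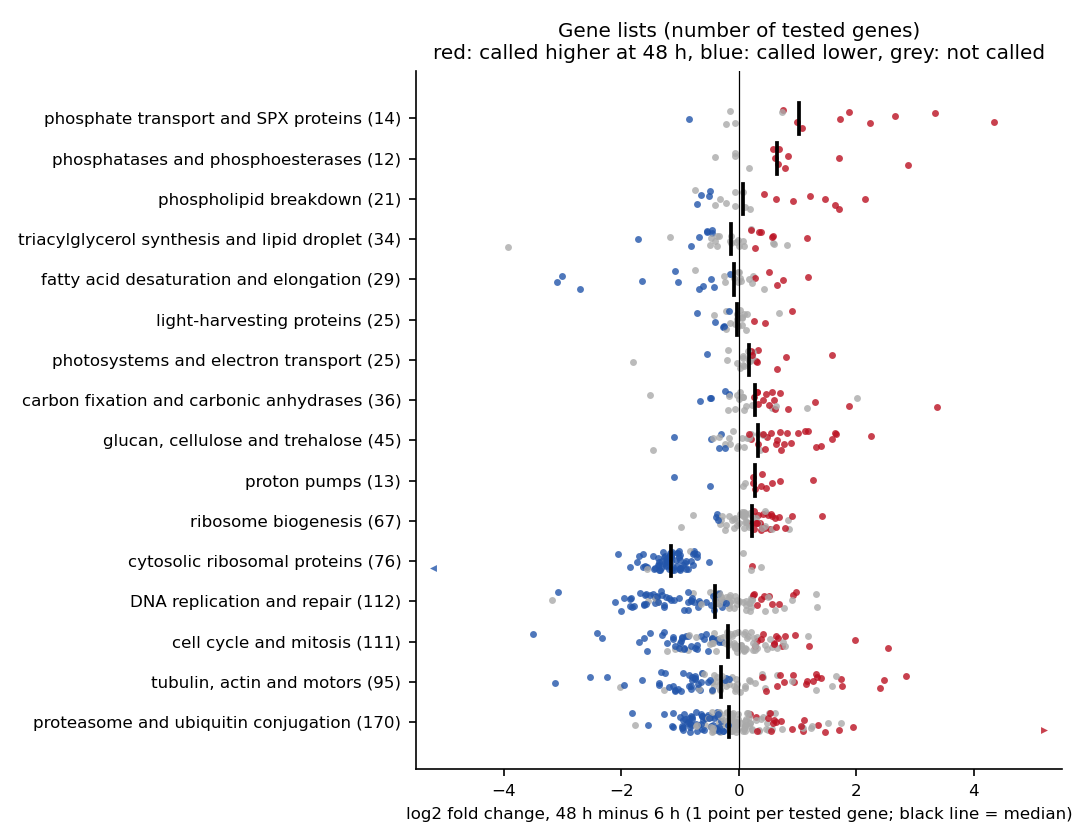
Each point is a tested gene placed by its log2 fold change (48 h minus 6 h) in its list, red if called higher at 48 h, blue if called lower and grey if not called, with the list median as a black line and arrowheads for genes beyond the axis. The cytosolic ribosomal proteins (median -1.16) lie almost wholly to the left, the phosphate transport list (median 1.03) mostly to the right.

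DNA replication genes fell as a broad group. In the list of DNA replication and repair genes 10 of 112 tested genes rose and 55 fell, 31 of the falls at least 2-fold, at a median log2 fold change of -0.40. The sliding clamp of DNA polymerase, proliferating cell nuclear antigen (NO06G02560), had 91.1, 99.8 and 92.1 CPM at 48 h, against 429, 419 and 367 CPM at 6 h (log2 fold change -2.10 ± 0.07, edgeR adjusted p = 4.15e-09). Each 6 h library was far above each 48 h library. Of 9 MCM proteins, most of them subunits of the helicase that opens origins, 8 fell; MCM2 (NO22G00890) had 46, 49.7 and 53 CPM at 48 h, against 175, 179 and 181 CPM at 6 h (log2 fold change -1.85 ± 0.10, edgeR adjusted p = 1.1e-07). Of 9 replication factor C and replication protein A subunits, which load the clamp and coat single strands, 8 fell as well, and so did 10 of 21 DNA polymerase subunits. The list's few rises were small: DNA ligase 6 (NO11G03000) rose by 0.68 on the log2 scale and all 10 rises stayed under 2-fold.

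Repair genes outside the replication fork were part of the fall, with 16 of 45 lower and 5 higher, or 1 higher in a fit of the 6 libraries alone. The endonuclease UVH1 (NO14G02210), which cuts damaged strands in nucleotide excision repair, had 14.5, 13.8 and 18.8 CPM in the 48 h libraries and 65.8, 73.6 and 50.9 CPM in the 6 h libraries (log2 fold change -2.02 ± 0.20, edgeR adjusted p = 6.94e-06). The highest of the 5 means was that of 6 h: the replication and repair list summed to 1438 FPKM at 0 h, 3018 at 6 h, 2183 at 12 h, 1898 at 24 h and 1609 at 48 h.

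Cell cycle genes were lower in a smaller share, with 14 of 111 tested genes higher and 36 lower. Cyclin-A1-1 (NO13G01690), of the class that drives S phase and entry into mitosis, had 6.17, 4.44 and 5.76 CPM at 48 h, against 73.9, 67.3 and 44.6 CPM at 6 h (log2 fold change -3.50 ± 0.25, edgeR adjusted p = 7.01e-07). A Nek2 gene (NO17G02980), for a kinase of mitosis, had 14.3, 13.5 and 12.8 CPM at 48 h, against 75.6, 89 and 51.7 CPM at 6 h (log2 fold change -2.41 ± 0.17, edgeR adjusted p = 7.41e-07). Both were far below their 6 h level, with no overlap. Another gene annotated as Nek2, NO14G02660, rose at a very low level, with 2.17, 2.51 and 1.64 CPM in the 48 h libraries and 0.28, 0.383 and 0.907 CPM in the 6 h libraries (log2 fold change 1.97 ± 0.51, edgeR adjusted p = 0.00754). Of 10 condensin, cohesin and other SMC genes, which fold and hold chromosomes, 9 fell; SMC3 of cohesin (NO25G01310) had 93.5, 95.5 and 47.7 CPM in the 48 h libraries and 253, 240.5 and 185 CPM in the 6 h libraries (log2 fold change -1.52 ± 0.23, edgeR adjusted p = 0.000193). Against this trend, the gene annotated as Aurora-3 kinase (NO04G04240) rose, with 129.9, 78.4 and 108 CPM at 48 h, against 18.7, 16 and 20.0 CPM at 6 h (log2 fold change 2.53 ± 0.22, edgeR adjusted p = 3.52e-06), and so did cyclin-L1-1 (NO24G02060), a partner of splicing-related kinases, by a log2 fold change of 1.19.

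Of 12 tested histone genes 3 fell and 0 rose, or 1 fell without 6 h replicate c, at a median log2 fold change of -0.32. Their summed level was 1304, 1260.5 and 1409 FPKM at 48 h, against 1663, 1723 and 1618 FPKM at 6 h, lower at 48 h without overlap. The largest fall was that of linker histone H1 (NO03G01950), with 30.9, 21.8 and 30.1 CPM at 48 h, against 89.5, 74.9 and 88.9 CPM at 6 h (log2 fold change -1.61 ± 0.19, edgeR adjusted p = 3.03e-05). Histone H3.3 (NO11G00250) averaged 294 CPM at 48 h and 274 CPM at 6 h with an edgeR adjusted p of 0.375. Histone copies are near-identical, so the split of reads among them is uncertain.

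Genes of the cytoskeleton and of the chaperonin that folds it were also lower. Of the tubulin, actin and motor list 18 of 95 tested genes rose and 36 fell, and among the tubulin genes 11 of 20 fell and 1 rose, a rise lost without any library other than 48 h replicate b. Tubulin alpha-2 (NO12G02410) had 1552, 1112 and 1449 CPM at 48 h, against 3034, 2960.0 and 2179.8 CPM at 6 h (log2 fold change -0.99 ± 0.14, edgeR adjusted p = 0.000142). A beta-5 tubulin (NO04G01220) had 22.1, 27.2 and 29.3 CPM at 48 h, against 172, 163 and 118 CPM at 6 h (log2 fold change -2.53 ± 0.15, edgeR adjusted p = 1.93e-07). Neither pair of groups overlapped. The actin gene NO03G02590 had 60.0, 63.6 and 67.4 CPM at 48 h, against 701, 427 and 548 CPM at 6 h (log2 fold change -3.13 ± 0.18, edgeR adjusted p = 1.85e-07), the largest fall among the actins, although another actin gene, NO03G02610, did not pass the test (-0.42 on the log2 scale). Kinesin motors were split, with 8 of 26 higher and 8 lower. The chaperonin CCT folds actin and tubulin: 8 of its 9 subunit genes fell, with a median of -0.94, and CCT epsilon (NO16G01320) had 148, 153 and 145 CPM in the 48 h libraries and 355, 354 and 319 CPM in the 6 h libraries (log2 fold change -1.20 ± 0.06, edgeR adjusted p = 4.55e-08).

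The proteasome, the protease that degrades ubiquitin-tagged proteins, was lower through most of its subunits. Of 52 tested subunit genes 36 fell and 1 rose (2 without 48 h replicate b or 6 h replicate a), at a median log2 fold change of -0.61. Subunit beta type-7-B (NO16G00520) had 59.6, 65.6 and 66.6 CPM at 48 h, against 150.1, 147 and 125 CPM at 6 h (log2 fold change -1.14 ± 0.08, edgeR adjusted p = 9.34e-07). The 6 h libraries all stood above the 48 h libraries. E3 ubiquitin ligases, which choose the substrates, were not shifted in 1 direction, with 11 of 62 higher and 10 lower, or 7 higher in a fit of the 6 libraries alone.

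The total of the light-harvesting genes depended on the scale. Their summed level was 35541, 44548 and 38633 FPKM at 48 h, against 38116, 39447 and 39589 FPKM at 6 h, so the groups overlapped. In CPM the sum was 86000.2, 99387 and 91663 at 48 h, against 78242, 79093 and 81043 at 6 h, higher at 48 h with no overlap. These CPM are not divided by gene length and also carry edgeR's TMM scaling between libraries. Which of these made the difference was not tested. Of 25 tested genes 3 rose and 6 fell, all under 2-fold, and 7 rose without 6 h replicate c. NO25G00860, with the highest mean CPM of all tested genes, had 29796, 34403 and 32897 CPM at 48 h, against 22088, 22649 and 26335 CPM at 6 h (log2 fold change 0.45 ± 0.08, edgeR adjusted p = 0.000677). The L1818-type gene NO02G05990, whose Chlamydomonas namesake is a stress-related light-harvesting protein, had 5341, 5826 and 4947 CPM at 48 h, against 2811, 2248 and 3541 CPM at 6 h (log2 fold change 0.91 ± 0.14, edgeR adjusted p = 0.000299). These copies resemble each other, and how shared reads were divided is not given in the sources used here.

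Chlorophyll genes rose in a larger share than the background, while the photosystem list depended on the fit and carotenoid genes stayed near the background. In the photosystem and electron transport list 8 of 25 tested genes rose and 1 fell, the single fall being lost without 48 h replicate a or c or 6 h replicate b or c. In a fit of the 6 libraries alone 5 of them rose. Of 4 genes for the iron-sulfur subunit of the cytochrome b6-f complex, which passes electrons between the photosystems, NO05G02070 rose, with 714, 544 and 612 CPM at 48 h, against 243, 194 and 186 CPM at 6 h (log2 fold change 1.58 ± 0.16, edgeR adjusted p = 1.02e-05). The other 3 copies did not pass the test. Of the chlorophyll and porphyrin list 10 of 26 tested genes rose and 4 fell. Glutamate-1-semialdehyde aminomutase (NO15G00100), which makes aminolevulinate, the precursor of chlorophyll and heme, had 1181, 1210.1 and 1215 CPM at 48 h, against 449, 432 and 494 CPM at 6 h (log2 fold change 1.39 ± 0.06, edgeR adjusted p = 3.32e-08). A coproporphyrinogen-III oxidase (NO06G04430) had 44.4, 46.7 and 46.1 CPM at 48 h, against 7.95, 8.87 and 10.3 CPM at 6 h (log2 fold change 2.34 ± 0.15, edgeR adjusted p = 3.3e-07). Both rose without overlap, and both had their lowest mean at 6 h, the aminomutase averaging 978 CPM at 0 h, 458 at 6 h, 677 at 12 h, 1147 at 24 h and 1202 at 48 h. Of the carotenoid genes 7 of 26 tested genes rose and 5 fell, or 3 lower without 48 h replicate a or 6 h replicate c, and their median was 0.12.

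Carbon metabolism held a large rise in a highly expressed gene. Pyruvate, phosphate dikinase (NO26G01010) turns pyruvate into phosphoenolpyruvate, using ATP and phosphate and releasing pyrophosphate. It had 2174, 2361 and 2116 CPM at 48 h, against 279, 156 and 204 CPM at 6 h (log2 fold change 3.38 ± 0.27, edgeR adjusted p = 1.9e-06). A second gene of that name, NO12G00860, had 875, 636 and 787 CPM at 48 h, against 320.0, 304 and 308 CPM at 6 h (log2 fold change 1.30 ± 0.14, edgeR adjusted p = 1.64e-05). The first averaged 334 CPM at 0 h, 213 at 6 h, 255 at 12 h, 492 at 24 h and 2217 at 48 h, most of its gain lying after 24 h. A mitochondrial beta carbonic anhydrase (NO01G01240), which interconverts CO2 and bicarbonate, had 213, 259.7 and 263 CPM at 48 h, against 63.5, 79.7 and 56.5 CPM at 6 h (log2 fold change 1.88 ± 0.24, edgeR adjusted p = 5.41e-05). The list of carbon fixation genes as a whole had 15 of 36 higher and 5 lower, the lower ones being 2 or 3 when any library other than 6 h replicate b was left out.

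The middle of glycolysis changed by gene copy. Cytosolic glyceraldehyde-3-phosphate dehydrogenase (NO27G00920) had 2977, 2813 and 2954 CPM at 48 h, against 1095, 1041 and 1112 CPM at 6 h (log2 fold change 1.43 ± 0.05, edgeR adjusted p = 7.17e-09). Cytosolic phosphoglycerate kinase (NO06G01060) had 721, 704 and 745 CPM at 48 h, against 187, 185 and 268 CPM at 6 h (log2 fold change 1.76 ± 0.12, edgeR adjusted p = 7.01e-07). These enzymes catalyse successive steps and both rose. The NADP-dependent glyceraldehyde-3-phosphate dehydrogenase (NO01G04930), which in plants skips the phosphate-using step, fell, with 39.8, 20.7 and 52 CPM at 48 h, against 189, 217 and 146 CPM at 6 h (log2 fold change -2.30 ± 0.32, edgeR adjusted p = 0.000105). A further glyceraldehyde-3-phosphate dehydrogenase (NO09G03360) fell by 1.53 and a cytosolic pyruvate kinase (NO05G05050) by -1.28 on the log2 scale. In all, 16 of 60 glycolytic genes rose and 8 fell, and chloroplastic phosphoglycerate kinase (NO06G04120) was among the falls (-0.49 on the log2 scale).

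Genes of the tricarboxylic acid cycle rose in a larger share than the background, and those of the respiratory chain did not. In the tricarboxylic acid cycle list 9 of 20 tested genes rose and 2 fell, with a median of 0.30, all under 2-fold. The alternative oxidase gene NO02G00290, which in plants under phosphate stress carries electrons to oxygen without pumping protons, had 1052, 816 and 998 CPM at 48 h, against 395, 374 and 418 CPM at 6 h (log2 fold change 1.27 ± 0.12, edgeR adjusted p = 5.74e-06). The respiratory chain and ATP synthase list had 9 of 40 higher and 3 lower, or 1 lower without 48 h replicate b or c or 6 h replicate b or c, and 5 higher in a fit of the 6 libraries alone.

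Genes for other nutrients did not move as blocks. Of the nitrogen genes 8 of 27 tested genes rose and 6 fell. A nitrate reductase gene, NO09G02340, which starts nitrate assimilation, had 591, 533 and 571 CPM at 48 h, against 155, 139 and 124 CPM at 6 h (log2 fold change 2.02 ± 0.12, edgeR adjusted p = 2.42e-07), while nitrite reductase (NO26G00710), the next enzyme, had 1368, 1433 and 1329 CPM at 48 h, against 2516, 2509.9 and 1733 CPM at 6 h (log2 fold change -0.71 ± 0.12, edgeR adjusted p = 0.000545). The first rose and the second fell, each without overlap. The high-affinity nitrate transporter 2.2 (NO14G02450) fell by 0.48 on the log2 scale (edgeR adjusted p = 0.00588). Carbamoyl-phosphate synthase had 1 gene up (NO05G03910, 0.38) and 1 down (NO01G04780, -1.03). Of the sulfur genes 9 of 31 tested genes rose and 4 fell: the high-affinity sulfate transporter NO11G01800 had 115, 119.9 and 120.3 CPM in the 48 h libraries and 54.7, 60.2 and 54 CPM in the 6 h libraries (log2 fold change 1.07 ± 0.23, edgeR adjusted p = 0.00223). Cysteine synthase NO07G03640 rose by a log2 fold change of 0.97. Both ATP sulfurylase genes fell, NO05G02380 by -0.55 and NO14G02380 by -0.46.

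Amino acid synthesis genes had 21 of 68 tested genes higher and 16 lower and a median of 0.07. Purine and pyrimidine synthesis genes had 10 of 35 higher and 12 lower, with 6 higher without 48 h replicate b.

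Transport and energising of membranes leaned upward. Ion transporters and channels had 24 of 60 tested genes higher and 5 lower, or 8 lower without 6 h replicate c, and ABC transporters had 30 of 84 higher and 11 lower. Of 10 subunits of the vacuolar proton ATPase, which acidifies the vacuole, 8 rose and 0 fell, or 5 higher in a fit of the 6 libraries alone. The rises were small, subunit a3 (NO20G02230) having 1294, 1173 and 1264 CPM at 48 h, against 1000.3, 959 and 899 CPM at 6 h (log2 fold change 0.38 ± 0.05, edgeR adjusted p = 0.000115). The one large value, 1.26 on the log2 scale for subunit B2, was 0.39 without 48 h replicate a. A cation/H+ antiporter (NO25G02020) had 58.9, 63 and 55.9 CPM at 48 h, against 2.07, 2.14 and 2.86 CPM at 6 h (log2 fold change 4.64 ± 1.29, edgeR adjusted p = 0.0117), a wide gap between the groups. At times between them it switched between replicates, with 48, 1067 and 40 counts at 12 h and 2015, 147 and 375 counts at 24 h.

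The ABC transporter F family, whose yeast members act on ribosomes rather than as membrane transporters, held opposite changes. Member 3 (NO06G03380) had 227, 228 and 225 CPM at 48 h, against 1677, 1545 and 1229 CPM at 6 h (log2 fold change -2.71 ± 0.13, edgeR adjusted p = 6.76e-08). Member 5 (NO07G00970) had 204, 206 and 192 CPM at 48 h, against 70.8, 69 and 83.8 CPM at 6 h (log2 fold change 1.43 ± 0.09, edgeR adjusted p = 4.05e-07). The UDP-galactose/UDP-glucose transporter NO29G01270, which carries nucleotide sugars across internal membranes, had 189, 183 and 185 CPM at 48 h, against 36.1, 31.4 and 32.8 CPM at 6 h (log2 fold change 2.47 ± 0.15, edgeR adjusted p = 3.08e-07). Its namesake NO24G00470 fell, by 1.03 on the log2 scale. The phosphoenolpyruvate/phosphate translocator of the plastid (NO04G05220), which exchanges phosphate for phosphoenolpyruvate, had 1808, 1993 and 1969 CPM in the 48 h libraries and 943, 953 and 1153 CPM in the 6 h libraries (log2 fold change 0.92 ± 0.09, edgeR adjusted p = 9.88e-06).

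Glucan-degrading genes rose in a large share. In the glucan, cellulose and trehalose list 23 of 45 tested genes rose and 5 fell, at a median log2 fold change of 0.33, and of 21 genes for breakdown of beta-glucan and cellulose 15 rose and 3 fell. Nannochloropsis has a cellulose wall and stores a beta-1,3-glucan. Exoglucanase 3 (NO23G00130) had 572, 286 and 457 CPM at 48 h, against 100.3, 85.3 and 90.9 CPM at 6 h (log2 fold change 2.25 ± 0.22, edgeR adjusted p = 7.06e-06). A glucan 1,3-beta-glucosidase (NO23G00160) had 405, 404 and 385 CPM at 48 h, against 131, 123 and 130.2 CPM at 6 h (log2 fold change 1.64 ± 0.06, edgeR adjusted p = 8.37e-09). Both were separate between the times, but exoglucanase 3 peaked earlier, averaging 85 CPM at 0 h, 92.2 at 6 h, 978 at 12 h, 221 at 24 h and 438 at 48 h.

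Small heat shock proteins, which hold unfolding proteins, rose while the wider chaperone list stayed balanced. Of the 5 genes 4 rose and 1 fell, the fall being lost without 48 h replicate a or 6 h replicate c. The 23.2 kDa heat shock protein gene NO20G02150 had 2538, 1731 and 2222 CPM at 48 h, against 131, 157 and 249 CPM at 6 h (log2 fold change 3.60 ± 0.40, edgeR adjusted p = 2.07e-05). Its neighbour by number NO20G02130 had 473, 349 and 445 CPM at 48 h, against 10.3, 5.92 and 28.1 CPM at 6 h (log2 fold change 4.83 ± 0.92, edgeR adjusted p = 0.00114). The lowest 48 h library of each was far above its highest 6 h library. Without 6 h replicate c, the log2 fold change of NO20G02130 was 5.7. At the other times NO20G02150 averaged 350.3 CPM at 0 h, 179 at 6 h, 152 at 12 h, 298 at 24 h and 2164 at 48 h. The full chaperone list had 30 of 121 genes higher and 30 lower.

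Redox and signalling genes were mixed. Among antioxidant and redox genes 20 of 80 rose and 18 fell, with 13 higher without 6 h replicate b. Peptide methionine sulfoxide reductase A2-1 (NO01G00420), which repairs oxidised methionine, had 73.4, 73.8 and 68.8 CPM at 48 h, against 13.9, 14.8 and 19.3 CPM at 6 h (log2 fold change 2.17 ± 0.11, edgeR adjusted p = 1.05e-07). The kinase STY17 gene NO09G02050 had 907, 779.6 and 882 CPM at 48 h, against 198, 188 and 264 CPM at 6 h (log2 fold change 1.98 ± 0.20, edgeR adjusted p = 8.49e-06). Mitogen-activated protein kinase cascade genes went both ways. The NTF3 homolog NO05G04480 fell, with 33.9, 29.4 and 34.5 CPM in the 48 h libraries and 136, 115 and 73.8 CPM in the 6 h libraries (log2 fold change -1.73 ± 0.19, edgeR adjusted p = 1.82e-05). Kinase kinase 1 (NO14G02700) fell by 1.61 on the log2 scale, while kinase kinase 6 (NO19G01640) had 242, 219 and 234 CPM at 48 h, against 52.1, 20.3 and 133 CPM at 6 h (log2 fold change 1.76 ± 0.56, edgeR adjusted p = 0.0239). That rise was lost in a fit of the 6 libraries alone and without 48 h replicate a or c or 6 h replicate a or b, and without 6 h replicate c its log2 fold change was 2.68. The blue-light receptor phototropin had 1 gene up, NO01G02090 (0.60), and 1 down, NO01G04880 (-1.35).

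Transcription factors and RNA processing stayed near the background or below. Of the transcription factor list 29 of 118 tested genes rose and 24 fell, and the larger of the steady changes were zinc finger genes: the CCCH-type gene NO01G00380 had 572, 504 and 481 CPM at 48 h, against 133, 119 and 206 CPM at 6 h (log2 fold change 1.76 ± 0.27, edgeR adjusted p = 0.000276). The RING/FYVE/PHD-type gene NO10G00230 fell by 1.41 on the log2 scale. Splicing and RNA processing genes had 7 of 86 tested genes higher and 20 lower, with a median of -0.10. The small rise share included the NHP2-like protein SNU13 (NO05G00930), of the spliceosome and of nucleolar particles, at 69.9, 74.2 and 73.4 CPM in the 48 h libraries and 20.5, 19.3 and 16.6 CPM in the 6 h libraries (log2 fold change 1.95 ± 0.11, edgeR adjusted p = 1.31e-07).

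The 24 largest changes among named products drew on few of these groups. Beside genes already given, the NAD-dependent epimerase/dehydratase gene NO12G03540 had 50.7, 101 and 107 CPM at 48 h, against 2.35, 4.05 and 2.02 CPM at 6 h (log2 fold change 4.95 ± 0.38, edgeR adjusted p = 1.35e-06). NO29G00310, named after an ARM-repeat partner of a plant stress factor, had 171, 169.7 and 179 CPM at 48 h, against 3.87, 7.45 and 12.3 CPM at 6 h (log2 fold change 4.45 ± 0.44, edgeR adjusted p = 7.64e-06). The heme-binding-like gene NO23G01210 had 245, 242 and 245 CPM at 48 h, against 15.5, 18 and 26.2 CPM at 6 h (log2 fold change 3.61 ± 0.19, edgeR adjusted p = 1.09e-07). All 3 were separate by a wide margin. The 48 h level of NO12G03540 was not above that of 0 h, however. It had 863, 2100 and 2018 counts at 48 h. At 0 h it had 2213, 2472 and 2903 counts, from library totals of 18013512, 21231074 and 24955189. On the falling side, a zinc metalloendopeptidase (NO27G01580) had 2.41, 1.78 and 1.53 CPM at 48 h, against 18.3, 20.5 and 22.6 CPM at 6 h (log2 fold change -3.42 ± 0.17, edgeR adjusted p = 7.62e-08). A polyadenylate-binding protein 8 (NO02G03730), which binds the tails of messenger RNA, had 3.76, 6.85 and 6.03 CPM at 48 h, against 45.5, 40.9 and 28.9 CPM at 6 h (log2 fold change -2.79 ± 0.26, edgeR adjusted p = 4.71e-06).

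Some of the 24 rested on 1 library or changed between nearly none and many reads. Aldehyde dehydrogenase 22A1 (NO20G01100) had 1.47, 113 and 1.8 CPM in the 48 h libraries and 0.504, 0.438 and 0.139 CPM in the 6 h libraries, so 48 h replicate b alone was high, and without it the log2 fold change was 2.21 with adjusted p = 0.289. The call was also lost without any one of the 6 h libraries. The complex I MLRQ subunit gene NO09G00200 had 581, 387 and 384 CPM in the 48 h libraries and 0.224, 0.219 and 0.139 CPM in the 6 h libraries, which at 6 h is 4 counts in each library (edgeR adjusted p = 0.000116). It also varied within 0 h, with 58.8, 0.249 and 64.7 CPM. Bifunctional protein FolD 2 (NO06G02730) had 0, 4.92 and 6.24 CPM in the 48 h libraries and 171, 8.66 and 203 CPM in the 6 h libraries (adjusted p = 0.0303), a call lost in a fit of the 6 libraries alone (0.0601) and without any library other than 6 h replicate b. NF-Y subunit C-2 (NO10G01540, edgeR adjusted p = 0.0291) was lost without 48 h replicate b or c or 6 h replicate b or c, and its log2 fold change of -4.05 became -5.7 without 48 h replicate a. Replication protein A 32 kDa subunit A (NO04G00690, edgeR adjusted p = 0.0263) was lost without any 48 h replicate or 6 h replicate c, the last of which moved its log2 fold change of -3.09 to -1.8. A strict rule for such switching was fewer than 10 counts in 1 library beside 100 or more in another of that time. It was met by 348 tested genes, 16 of the higher and 8 of the lower among them. The rule misses NO20G01100, NO04G00690, the antiporter gene NO25G02020 and the L15 gene NO09G03120, so it does not count every gene of this kind.

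**Figure D4:**
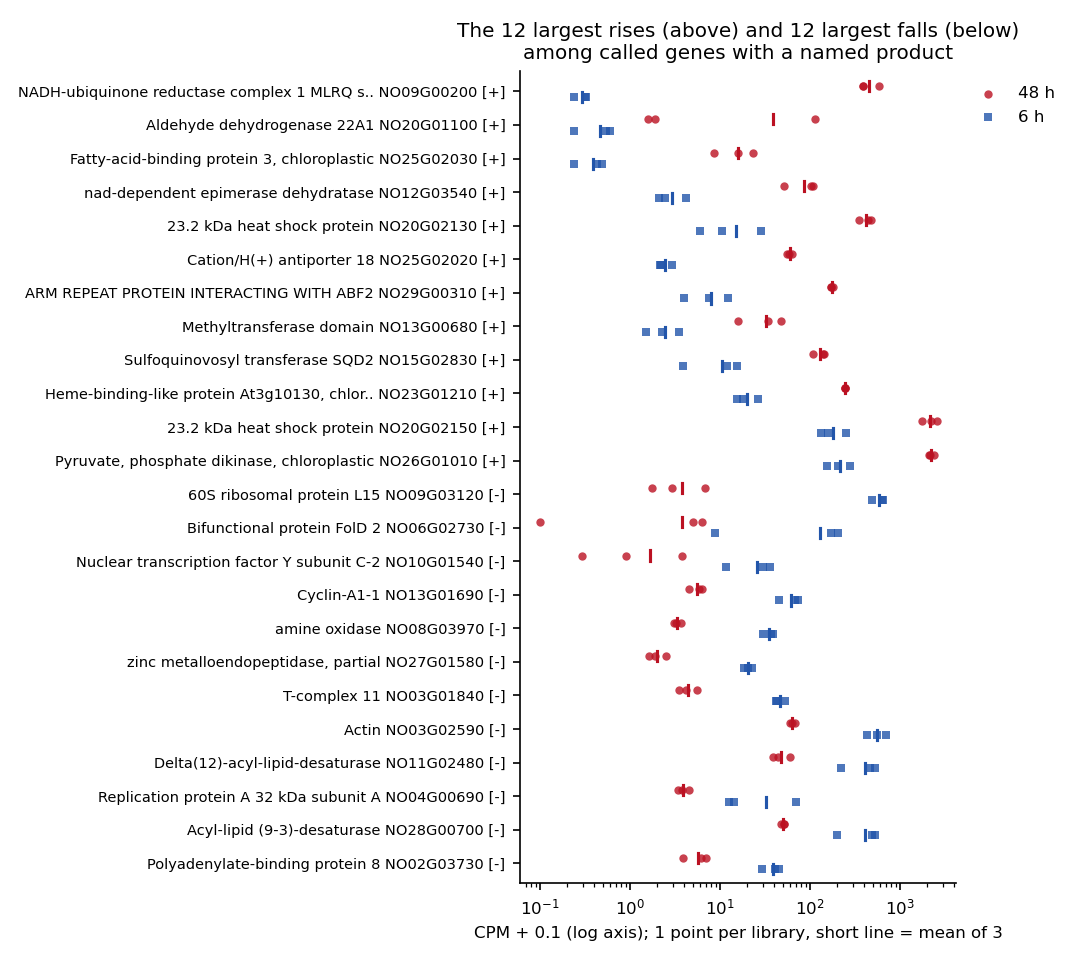
The 12 largest rises (upper rows) and 12 largest falls (lower rows) among called genes with a named product, with CPM + 0.1 on a log axis, red circles for 48 h libraries, blue squares for 6 h libraries and short lines for means of 3. For most genes the 3 points of a time lie close together, but aldehyde dehydrogenase 22A1 (NO20G01100) rests on 1 library at 113 CPM, and FolD 2 (NO06G02730) spans 0 to 6.24 CPM at 48 h and 8.66 to 203 CPM at 6 h.

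Descriptions covered a smaller share of the large rises. A description was given for 66.8% of the tested genes, but for 56.9% of those higher at least 2-fold and 49.7% of those higher at least 4-fold, against 68.1% and 62.7% of those lower by as much; these shares are a description and were not tested. The undescribed gene with the smallest p, NO07G04520, had 51.7, 53.2 and 51.4 CPM at 48 h, against 0.112, 0.11 and 0.0697 CPM at 6 h (edgeR adjusted p = 2.21e-11), which at 6 h is 2 counts in each library. It was silent or nearly so at 6 h and steady at 48 h. Another, NO16G02220, had 137, 154 and 148 CPM at 48 h, against 35, 31.5 and 35.6 CPM at 6 h (log2 fold change 2.11 ± 0.08, edgeR adjusted p = 1.72e-08). The undescribed gene NO17G02930, among the 5 with the highest mean CPM, had 10887, 5276 and 9265 CPM at 48 h, against 3644, 1343 and 3118 CPM at 6 h (log2 fold change 1.65 ± 0.42, edgeR adjusted p = 0.0075). NO23G00020, singled out after its values were seen, had 10147, 4879.6 and 8527 CPM at 48 h, against 433, 357 and 327 CPM at 6 h (log2 fold change 4.40 ± 0.25, edgeR adjusted p = 1.89e-07). The second averaged 217 CPM at 0 h, 372 at 6 h, 4203 at 12 h, 3268 at 24 h and 7851 at 48 h, with much of its gain by 12 h.

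The libraries of 12 h and 24 h did not enter the contrast, and their means are set beside those of 6 h and 48 h. Among the 2283 genes higher at 48 h, the 24 h mean lay between those of 6 h and 48 h in 57%, and the 12 h mean did so in 38.2%. Among all tested genes whose 48 h mean was above the 6 h mean, these shares were 40% and 27.3%. Among the 1914 lower genes the 24 h mean lay between in 65.9% and the 12 h mean in 46.8%, against 44.8% and 31.7% of all genes with a lower 48 h mean. For changes of at least 2-fold the 24 h mean was intermediate in 81.3% of the higher and 81.5% of the lower genes. A wider gap between the 6 h and 48 h means leaves more room for a mean to lie between them. Choosing called genes, or those past 2-fold, favours wide gaps, and the shares of all genes were not matched for the gap. These shares therefore cannot tell whether the called genes changed gradually.

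The gene groups reached their 48 h level at different times. The phosphate transport list summed to 818 FPKM at 0 h, 583 at 6 h, 584 at 12 h, 1106 at 24 h and 1549 at 48 h. On that scale it was low at 6 h and 12 h and climbed after. Single libraries ranged from 550 to 953 FPKM at 0 h and from 465 to 742 FPKM at 12 h. In CPM the sum averaged 2769 at 0 h, 1660 at 6 h, 2229 at 12 h, 3014 at 24 h and 4248 at 48 h. On the CPM scale the climb had begun by 12 h. Cytosolic ribosomal proteins stayed high to 24 h and dropped between 24 h and 48 h. DNA replication and repair and the oil list had both dropped by 12 h and were lower again at 24 h. The oil list summed to 1320.2 FPKM at 0 h, 2121 at 6 h, 1728 at 12 h, 1523 at 24 h and 1496 at 48 h. The lipid droplet surface protein gene NO11G02550 weighs heavily in that sum. The summed levels of ribosomal protein and of replication genes at 48 h were close to those at 0 h, while that of the phosphate transport list was above its level at 0 h.

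**Figure D5:**
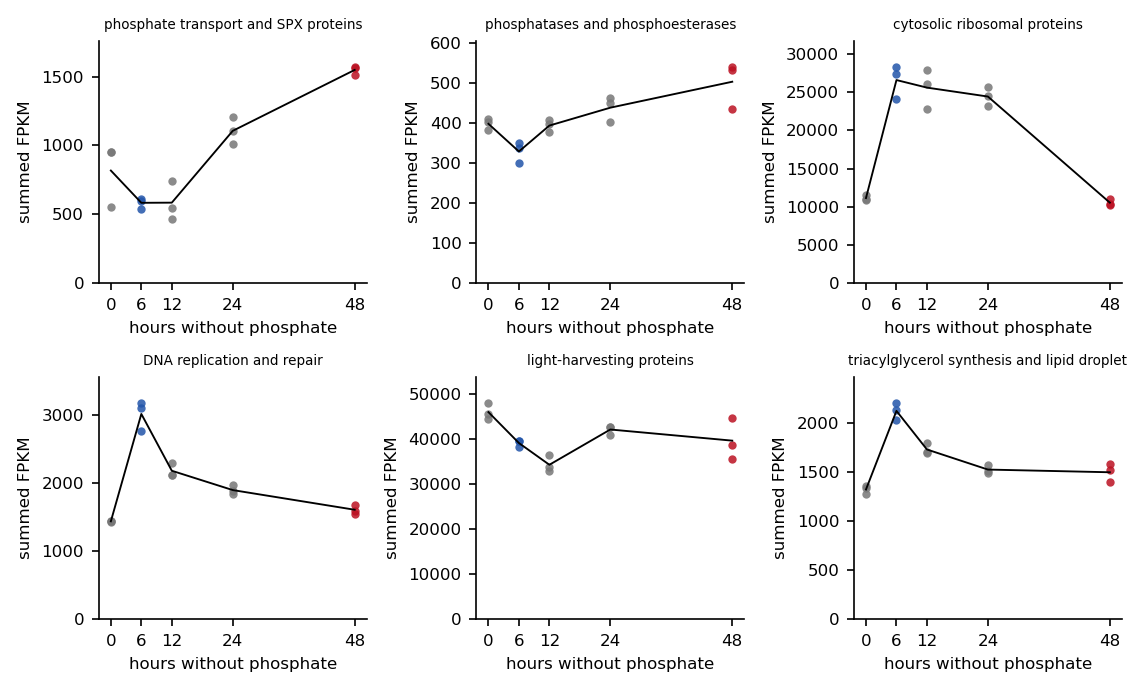
Summed FPKM of 6 gene lists (vertical axes, from 0) against hours without phosphate, with 1 point per library, red for 48 h, blue for 6 h and grey for the other times, and a line through the means of 3. The phosphate transport list is lowest at 6 h and 12 h and highest at 48 h. The replication and oil sums are highest at 6 h, and ribosomal proteins are high at 6 h, 12 h and 24 h. The oil sum is shaped largely by the lipid droplet surface protein gene NO11G02550.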

How the data were processed

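RNA sequencing of total RNA gave 15 libraries, 3 at each of 5 times, assigned to their time from the labels. Reads were aligned with HISAT2, per the submitters' processing notes; which program counted them, and on which genome build and annotation, is not given in the sources used here. Per the file headers, each gene of the deposited table has 2 columns a library, a count and an FPKM. The deposited counts are whole numbers, not scaled to depth; of 374 low values, 97.6% lay in the unit above the value recalculated from FPKM, so these estimated counts were read as rounded up by the authors. The FPKM values, scaled by the authors to gene length and depth, were used only to sum and compare levels.

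The test of the counts was edgeR 4.0.16 in R 4.3.3: filterByExpr by time, TMM scaling (factors 0.945 to 1.09), a quasi-likelihood F-test with 5 group means fitted to all 15 libraries, and the contrast of 48 h minus 6 h. The other 9 libraries entered the filter, the scaling and the estimate of spread, not the contrast. Tests were two-sided, with Benjamini-Hochberg adjustment over 9321 genes at 0.05. The standard error after ± is the log2 fold change divided by the root of F. Total counts were 16649421 to 26349336, and a count of 0 allows up to 3 counts, 0.114 to 0.18 CPM, counting error only. Same-time libraries were not copies: chi-square per degree of freedom was at least 55.9. Residuals of libraries with the same letter correlated at -0.088 to 0.0768, with 0 of 30 pairs over 0.1, so no strong shared deviation by letter was seen. This cannot settle whether a letter marks the same culture.

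The members and the 47 gene lists were chosen with earlier results of these data known. Lists were matched to descriptions and hold some genes their names do not cover, such as cardiolipin synthase among oil genes, folylpolyglutamate synthases among nitrogen genes, other pyrophosphatases among polyphosphate genes, ATP-citrate synthase in the tricarboxylic acid cycle and translocon component 52 among chlorophyll genes. Named genes were the 12 largest separate rises and falls with a described product and mean log2 CPM of at least 3. In each list up to 3 rises and 3 falls were added, also only among called members with separate libraries. All tested members were added for the phosphate transport, phosphatase, pyrophosphate, phospholipid breakdown, sulfolipid and oil lists, but not for the other lipid lists. Added too were 3 undescribed genes per direction and the 5 of highest CPM. From all of these the text gives those that suit its groups. Outside that rule, NO03G02610, NO05G03910, NO11G00250, NO12G02410, NO20G02230, NO22G00890, NO23G00020 and NO25G01310 were chosen after their values were seen.

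Alternatives were DESeq2 1.42.0, edgeR scaled by DESeq2's size factors or by upper quartiles, robust estimation, no filter, a filter of 50 counts in 3 libraries, the letter as replicate block, the 6 libraries alone, a 2-fold threshold, no genes with discordant replicates (fewer than 10 counts in 1 library beside 100 or more in a library of that time) and each library left out in turn. On simulated data of 9273 genes with 200 changed, the steps recovered 72% of genes changed 2-fold and 87% changed 4-fold, with 3% of calls false. That was 1 run, with counts drawn at the fitted spread. In the data 45.0% of tested genes were called, far more than were changed in the simulation. The 3% is therefore not the error rate of the calls reported here. The reference table held 160 genes, of which 0 matched an identifier of the table, so no positions or sequences were used. Tables and figures used Python 3.11.15, pandas 2.3.3 and matplotlib 3.10.9.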

Additional observations from a re-analysis of the deposited data

How the results depend on the processing

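The counts of 2283 higher and 1914 lower genes were 2182 and 2023 with DESeq2 size factors, 2206 and 1815 with the replicate block, 1683 and 1730 in a fit of the 6 libraries alone, and 2323 and 2177 by DESeq2 itself, which gave no adjusted p for 115 genes. With a 2-fold threshold they were 761 and 439. Leaving out each library in turn gave 1931 to 2269 higher and 1643 to 1848 lower genes. No gene called in both directions was found under any of these settings, with 0 opposite calls in each. The same-letter libraries are not stated to share a culture, so the block says nothing of pairing; it called 2162 of the same higher and 1785 of the same lower genes. Among the smaller lists, a fit of the 6 libraries alone gave 3 rather than 5 phospholipid synthesis genes higher, 5 rather than 8 photosystem genes, 5 rather than 9 respiratory genes, 5 rather than 10 purine and pyrimidine genes, 5 rather than 10 replication and repair genes, 11 rather than 18 cytoskeleton genes, 5 rather than 9 proton pump genes and 19 rather than 29 transcription factors higher, and 2 rather than 5 carbon fixation genes, 4 rather than 7 organelle ribosomal protein genes and 13 rather than 20 splicing genes lower. DESeq2 called 2 rather than 1 of the phosphate transport list, 5 rather than 3 respiratory and 9 rather than 5 ion transporter genes lower. The cause of these moves was not tested. In the block fit, 9 named results lost their call, 3 rather than 5 carbon fixation genes and 1 rather than 3 respiratory genes were lower. Depth limits genes under about 0.2 CPM, where 3 counts are the floor.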

Other observations

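Gene groups outside the comparisons above gave these counts. Autophagy and vacuolar protease genes had 16 of 65 tested genes higher and 11 lower, with a median log2 fold change of 0.07 and 7 lower without 6 h replicate a. Vesicle trafficking genes had 16 of 106 tested genes higher and 23 lower, and sterol, isoprenoid and sphingolipid genes had 11 of 38 tested genes higher and 10 lower, with 8 and 7 higher in a fit of the 6 libraries alone. Among RNA polymerase subunits 3 of 23 tested genes rose and 4 fell, with 1 higher without 48 h replicate a or c and 2 lower without 48 h replicate c or 6 h replicate b or c. Sugar, nucleotide sugar and triose phosphate transporters had 5 of 23 tested genes higher and 5 lower, or 3 lower without 48 h replicate c or 6 h replicate a. Signalling kinase genes had 21 of 67 tested genes higher and 12 lower.

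By the table's own functional classes, replication, recombination and repair had 91 of 201 tested genes lower at 48 h and 23 higher, and the cytoskeleton class 38 of 90 lower and 12 higher. Secondary metabolism had 53 of 140 higher and 15 lower, inorganic ion transport 49 of 137 higher and 18 lower, and the small class of defense mechanisms 15 of 34 higher and 6 lower. These shares stand beside 24.5% higher and 20.5% lower over all tested genes and were not tested. Among the 2283 higher genes, the 24 h mean was above the 12 h mean in 61.8%, against 31.0% of the 1914 lower genes; the same shares were 59.5% and 42.8% of all genes with a higher or a lower 48 h mean.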
